A study of Mus musculus with 18 samples.

Results

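The GIMAP genes (GTPases of immunity-associated proteins) encode small GTP-binding proteins that are made mainly in lymphocytes. The members described here were the 8 rows of the expression table whose symbols are Gimap1, Gimap3, Gimap4, Gimap5, Gimap6, Gimap7, Gimap8 and Gimap9, out of 46983 genes in all. They were chosen by name, and all 8 were measured in every one of the 18 libraries and kept by the filter on low values. RNA sequencing was done on CD8 T cells of mice, sorted by surface CD44: naive cells carried little of it and memory-phenotype cells much. Wild-type mice, given as C57BL/6J, supplied 4 naive and 4 memory libraries. Dock2-Hsd/Hsd mice, which the labels call Dock2-deficient, supplied 5 naive and 5 memory libraries. No treatment was given to any group, and no ages were stated. The labels named the strain of all 18 libraries as C57BL/6J but carried the name C57L6NHsd in the descriptions of the Dock2-deficient libraries, so substrain and genotype cannot be told apart. Whether each replicate came from its own animal was not stated, so the p-values reflect only how these libraries scattered, some of which may be technical.

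As background, GIMAP proteins share a GTPase fold related to that of the septins, and several sit on the membranes of organelles. They are known for their part in the survival and upkeep of mature T cells. Loss of Gimap5 leads to T cell lymphopenia in mice and rats, and loss of Gimap1 removes mature lymphocytes from the periphery. Gimap3 and Gimap5 have been tied to BCL2 family proteins, Gimap6 to the ATG8 protein Gabarapl2 and autophagy, and Gimap4 to the execution of T cell death. DOCK2 is a Rac activator of blood cells that drives lymphocyte migration.

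The 8 genes lay side by side on mouse chromosome 6 (build mm10), from 48647234 to 48770851, a stretch of 123.6 kb, with 6 on the plus strand and Gimap6 and Gimap3 on the minus strand. Their order was Gimap8, Gimap9, Gimap4, Gimap6, Gimap7, Gimap1, Gimap5 and Gimap3. Gimap4 (ENSMUSG00000054435) spanned 48684549 to 48692060, Gimap7 (ENSMUSG00000043931) 48718621 to 48724636, and Gimap1 (ENSMUSG00000090019) 48739054 to 48743795, all annotated as protein-coding. The noncoding antisense transcript Gimap1os (ENSMUSG00000044867) ran from 48738346 to 48741444 on the minus strand and shared 1107 bp, or 36.0%, of the exon length of Gimap1. The library method did not mark strand, so reads from the shared stretch cannot be assigned to Gimap1 or Gimap1os. The readthrough gene Gm28053 shared 198 bp of exon with Gimap1, 153 bp with Gimap5 and 81 bp with Gimap7, and its mean value was 6.32. Of all member pairs, only Gimap3 and Gimap5 shared stretches of 50 bases in their transcripts: 190 such stretches, 7.5% of those of Gimap3 and 4.5% of those of Gimap5, so reads from these stretches were split between them by estimate.

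The 250 bases upstream of the annotated starts are shown for the 3 members whose memory-to-naive differences had the lowest p in the wild type, Gimap4, Gimap7 and Gimap1 (RefSeq, build GRCm38.p6, plus strand, chr6:48684328-48684577, chr6:48718371-48718620 and chr6:48738797-48739046). Capitals mark ACCACA, the RUNX motif TGTGGT read on the opposite strand; RUNX factors act in CD8 T cells. The Gimap1 window lies inside Gimap1os.
Gimap4: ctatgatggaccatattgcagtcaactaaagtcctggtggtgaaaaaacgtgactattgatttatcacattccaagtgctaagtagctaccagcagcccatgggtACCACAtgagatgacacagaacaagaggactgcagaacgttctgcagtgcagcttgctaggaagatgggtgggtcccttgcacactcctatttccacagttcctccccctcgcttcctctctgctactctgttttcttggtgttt
Gimap7: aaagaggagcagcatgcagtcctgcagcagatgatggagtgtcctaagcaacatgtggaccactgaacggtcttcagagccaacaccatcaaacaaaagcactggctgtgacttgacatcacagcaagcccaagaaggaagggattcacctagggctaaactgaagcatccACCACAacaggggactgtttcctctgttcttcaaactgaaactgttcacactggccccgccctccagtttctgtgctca
Gimap1: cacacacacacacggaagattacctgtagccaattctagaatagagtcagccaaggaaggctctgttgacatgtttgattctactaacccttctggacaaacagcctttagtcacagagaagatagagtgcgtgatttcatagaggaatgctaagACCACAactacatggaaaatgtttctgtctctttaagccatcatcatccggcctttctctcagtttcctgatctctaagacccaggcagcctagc
Counted from the RefSeq starts, which directly follow these windows and for Gimap4 and Gimap1 differ from the GENCODE starts given above, the match began 145 bases before the start of Gimap4, 79 before that of Gimap7 and 95 before that of Gimap1. Of 27025 promoter windows of this length, 14.18% held the RUNX motif on either strand. Of the other motifs searched on both strands, the T-box motif GGTGTGA (in 3.31% of windows) was found only upstream of Gimap8, the ETS motif AGGAAGT (7.80%) only upstream of Gimap5, and the FOXO motif GTAAACA (3.09%) only upstream of Gimap3. No motif of these 4 was found in the windows of Gimap6 and Gimap9. Each match is a string of letters in a window and was not tested as a binding site.

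Library depth ranged from 2215987 to 8257768 expected reads, of which the ribosomal RNA gene Rn18s-rs5 took 37.0% to 69.4%. The defining CD8 T cell genes Cd3e, Cd3d, Cd8a and Cd8b1 were above 0 in all 18 libraries, with a summed value of 4711 to 10322. Cd44 RNA was 6.61 ± 2.65 (SD, n = 4) in wild-type naive, 193 ± 46.0 (n = 4) in wild-type memory, 5.99 ± 8.91 (n = 5) in Dock2-deficient naive and 194 ± 20.6 (n = 5) in Dock2-deficient memory libraries. GIMAP genes are also made in B cells and endothelium: the B cell gene Pax5 was at 0 in 17 libraries, and the endothelial genes Kdr and Tek were at 0 in all 18 and Cdh5 in 16. Other genes of these lists, Cd79b and Pecam1, were above 0 in all 18 libraries and had lower means in memory groups: Cd79b 40.9 and 33.3 in wild-type naive and memory and 39.8 and 25.5 in the Dock2-deficient groups, and Pecam1 115 and 75.6, then 137 and 55.7. The summed B cell list was 23.1 to 57.5 and the summed endothelial list 42.6 to 179. A summed NK cell list was higher in memory, at 21.9 to 46.4 (wild type) and 19.5 to 38.3 (Dock2-deficient). It was 0 and 0 to 6.11 in the naive groups. Its gene Klre1 alone averaged 28.5 and 23.7 in the memory groups. A summed gamma delta list was 3.63 to 5.65 and 16.4 to 33.2 in wild-type naive and memory. In the Dock2-deficient groups it was 25.1 to 53.8 and 10.7 to 16.8. The part of these lists in the GIMAP values was not tested. In naive cells, Dock2 RNA was 513.7, 421.8, 329.6 and 287.5 in the 4 libraries of the wild type and 295.9, 202.4, 373.3, 174.1 and 171.3 in the Dock2-deficient ones. It was 444.3, 459.4, 399.7 and 844.1 in wild-type memory and 225.4, 207.5, 148.1, 279.6 and 61.03 in Dock2-deficient memory libraries. Averaged over both states, Dock2 RNA fell by 1.17 ± 0.25 (log2 fold change ± SE, limma adjusted p = 0.0454) in Dock2-deficient libraries, and the naive groups overlapped. Xist RNA, from the inactive X chromosome of females, was 1820 to 3887 in all 8 wild-type libraries, 2217 and 2593 in library 1 of the Dock2-deficient naive and memory groups, and 0 to 5.44 in the other 8, so sex was uneven between genotypes.

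Which GIMAP genes differed between naive and memory cells was asked first. Gimap4 rose in memory cells of both genotypes, 2.78-fold in the wild type and 2.49-fold in Dock2-deficient mice (fitted on the log2 scale). Gimap7 passed the test when both genotypes were averaged. Within each genotype its estimate was also above 0 but missed the threshold after adjustment. No other member passed the test, and Gimap1 was the only one with a lower estimate in memory than in naive cells. Values below are normalized expected counts, that is, read counts estimated by RSEM and scaled between libraries by the submitters. Differences are on the log2(value + 1) scale, from limma fitted to all 9437 genes kept, with Benjamini-Hochberg adjusted p and a threshold of 0.05.

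Gimap4, the member known from cell death studies, was 255.5, 320.0, 327.0 and 406.5 in the 4 naive libraries of the wild type (327 ± 61.9, SD). It was 789.2, 807.9, 921.7 and 1115 in the 4 wild-type memory libraries (909 ± 150). Every memory library was above every naive one. The log2 difference was 1.48 ± 0.28 (SE, 95% interval 0.90 to 2.05, limma adjusted p = 0.00279), rank 105 of the 9437 genes by p. In Dock2-deficient mice Gimap4 was 312.8, 485.1, 311.8, 582.3 and 577.5 in naive libraries (454 ± 135) and 710.0, 928.7, 1072, 1114 and 1956 in memory libraries (1156 ± 474). Here too the groups did not overlap, and library 5 of the memory group was the highest. The log2 difference was 1.32 ± 0.25 (95% interval 0.80 to 1.83, limma adjusted p = 0.00271). Averaged over genotypes it was 1.40 ± 0.19 (95% interval 1.01 to 1.78, limma adjusted p = 2.5e-05), rank 104. With the highest memory library of each genotype left out (wild-type 4 and Dock2-deficient 5), the differences were 1.37 and 1.11, with limma adjusted p of 0.0026 and 0.00508.

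**Figure D1:**
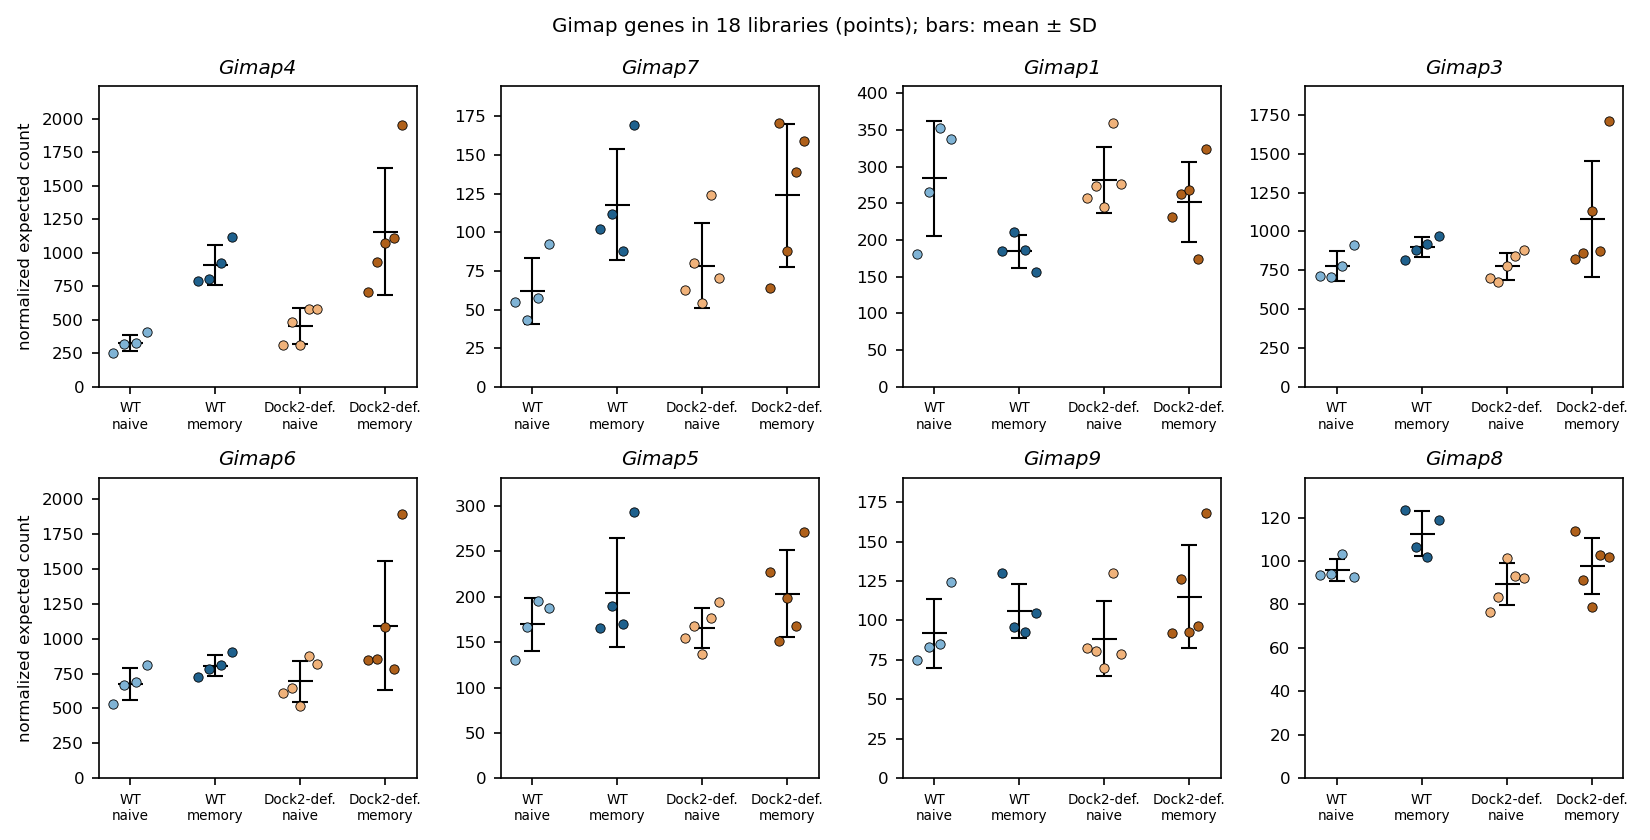
Normalized expected count of each Gimap gene (linear y axis from 0) in the 4 groups; each point is a library, bars are mean ± SD (n = 4 wild type, 5 Dock2-deficient). Gimap4 separates naive from memory libraries in both genotypes, while the groups of the other 7 genes overlap in both.

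Gimap7, a member known to form dimers that speed its own GTP hydrolysis, was the least deeply read member, with as few as 24.0 expected reads in a library. It was 55.1, 43.4, 57.3 and 92.6 in wild-type naive libraries (62.1 ± 21.2) and 102, 111, 87.7 and 170 in wild-type memory libraries (118 ± 36.0). The groups overlapped because naive library 4, at 92.6, was above memory library 3, at 87.7. The log2 difference was 0.92 ± 0.33 (95% interval 0.24 to 1.61), with a limma p of 0.0107 before and 0.189 after adjustment. In Dock2-deficient mice Gimap7 was 62.7, 80.2, 54.3, 124 and 70.7 in naive (78.4 ± 27.4) and 63.9, 170, 87.7, 139 and 159 in memory libraries (124 ± 46.2). These groups overlapped too. The log2 difference was 0.62 ± 0.29 (95% interval 0.01 to 1.23), with a limma p of 0.0472 before and 0.369 after adjustment. Averaged over genotypes Gimap7 rose by 0.77 ± 0.22 (95% interval 0.31 to 1.23, limma adjusted p = 0.0428). This call was close to the threshold. Over the 18 fits that each left out 1 library the log2 difference was 0.68 to 0.88, and 5 fits kept the call. They left out naive 4 or memory 3 of the wild type, or naive 4, memory 1 or memory 3 of the Dock2-deficient mice. Leaving out any of the other 13 gave a limma adjusted p between 0.0581 and 0.106, with log2 differences of 0.68 to 0.80.

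Gimap1, needed for the upkeep of mature lymphocytes, had lower values in memory than in naive libraries of the wild type. It was 182, 265, 352 and 337 in naive (284 ± 78.1) and 185, 211, 186 and 156 in memory libraries (184 ± 22.5). Naive library 1 lay among the memory values, and the other 3 naive libraries were above all of them. The log2 difference was -0.58 ± 0.23 (95% interval -1.05 to -0.11), with a limma p of 0.0178 before and 0.259 after adjustment. In Dock2-deficient mice Gimap1 was 258, 274, 245, 359 and 276 in naive (282 ± 44.9) and 231, 262, 268, 174 and 324 in memory libraries (252 ± 54.9), which overlapped broadly. The log2 difference there was -0.18 ± 0.20 (limma adjusted p = 0.760), and the average over genotypes was -0.38 ± 0.15 (limma adjusted p = 0.191). Gimap1os, the antisense transcript over Gimap1, had values in the opposite order: 29.3 ± 8.20 in wild-type naive (n = 4) against 52.2 ± 9.56 in wild-type memory libraries (n = 4). These groups did not overlap, at 22.4 to 41.1 against 43.4 to 64.4. In Dock2-deficient mice Gimap1os was 29.9 ± 6.37 in naive (n = 5) and 48.3 ± 17.5 in memory libraries (n = 5), and memory library 1, at 19.5, was below all 5 naive libraries. The averaged log2 difference of Gimap1os was 0.71 ± 0.22, which missed the threshold (limma adjusted p = 0.0628). As a percentage of the Gimap1 value, Gimap1os was 10.9 and 28.9 in wild-type naive and memory, and 10.7 and 19.9 in Dock2-deficient naive and memory libraries. These values hold only as far as RSEM could divide the reads of the shared 1107 bp.

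Gimap3 and Gimap6, which with Gimap4 were the most abundant members, did not pass the test between naive and memory cells. The 95% intervals of their wild-type log2 differences were -0.23 to 0.65 and -0.25 to 0.78. Gimap3, a close relative of Gimap5, was 713, 705, 780 and 915 in naive and 817, 883, 921 and 970 in memory libraries of the wild type, a log2 difference of 0.21 ± 0.21 (limma adjusted p = 0.791). In Dock2-deficient mice it was 703, 676, 779, 843 and 880 in naive and 823, 864, 1132, 875 and 1709 in memory libraries, a log2 difference of 0.43 ± 0.19 (limma adjusted p = 0.330). Before adjustment the limma p of Gimap3 there was 0.0361. Most of the higher mean in Dock2-deficient memory cells lay in libraries 3 and 5. Gimap6, the partner of Gabarapl2, was 531, 671, 692 and 810 in naive and 727, 780, 811 and 904 in memory libraries of the wild type (log2 difference 0.26 ± 0.25, limma adjusted p = 0.764). In Dock2-deficient mice Gimap6 was 610, 644, 520, 873 and 820 in naive and 847, 857, 1085, 781 and 1889 in memory libraries (0.60 ± 0.22, limma adjusted p = 0.214). Before adjustment the limma p of Gimap6 there was 0.0141, with a 95% interval of 0.13 to 1.06. Memory library 5 was again far above the rest. Without it and wild-type memory library 4, the Gimap6 difference was 0.38 (limma adjusted p = 0.438). Averaged over genotypes, Gimap3 and Gimap6 had limma p of 0.0367 and 0.0176 before and 0.266 and 0.175 after adjustment.

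Gimap5, Gimap9 and Gimap8 did not pass the test in either genotype. Gimap5, whose loss causes lymphopenia, was 170 ± 29.3, 205 ± 60.0, 166 ± 21.8 and 203 ± 47.9 in the wild type (naive, memory) and in Dock2-deficient mice (naive, memory; SD, n = 4, 4, 5 and 5). Its log2 difference between memory and naive was 0.24 ± 0.23 in the wild type and 0.27 ± 0.20 in Dock2-deficient mice (limma adjusted p = 0.761 and 0.607). The wild-type estimate of Gimap5 was 0.06 without memory library 4, at 293 the highest of its group, and 0.12 without naive library 1. Gimap9 was 91.9 ± 22.0, 106 ± 17.0, 88.5 ± 23.7 and 115 ± 32.8 in the same order, with log2 differences of 0.22 ± 0.25 and 0.37 ± 0.22 (limma adjusted p = 0.823 and 0.506). Gimap8, the longest family member, with repeated GTPase domains, was 95.9 ± 5.04, 113 ± 10.2, 89.4 ± 9.56 and 97.7 ± 13.0, with log2 differences of 0.23 ± 0.18 and 0.12 ± 0.16 (limma adjusted p = 0.703 and 0.799). The 95% intervals of Gimap8 reached 0.60 in the wild type and 0.46 in Dock2-deficient mice, so a difference of the size seen for Gimap4 lay outside them.

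Counted over the family, 1 of 8 members passed the test in the wild type, where 2.52% of all 9437 genes did, and 1 of 8 in Dock2-deficient mice, where 2.82% did. Averaged over genotypes, 2 of 8 passed, against 5.59% of all genes. Before adjustment, 3, 4 and 5 of 8 members had a limma p under 0.05 in the wild type, in Dock2-deficient mice and averaged. Of all 9437 genes, 1140, 1260 and 1494 did. The estimate was above 0 for 7 of 8 members in each of the 3 comparisons, against 47.9%, 49.3% and 47.9% of all genes. The median log2 difference of the members was 0.24 in the wild type, 0.40 in Dock2-deficient mice and 0.31 averaged, against -0.02, -0.01 and -0.02 over all genes. Without Dock2-deficient memory library 5 the median in Dock2-deficient mice was 0.23. Memory and naive libraries did not overlap for 1 of 8 members in the wild type and 1 of 8 in Dock2-deficient mice, Gimap4 each time; this was so for 8.27% and 3.93% of all genes.

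**Figure D2:**
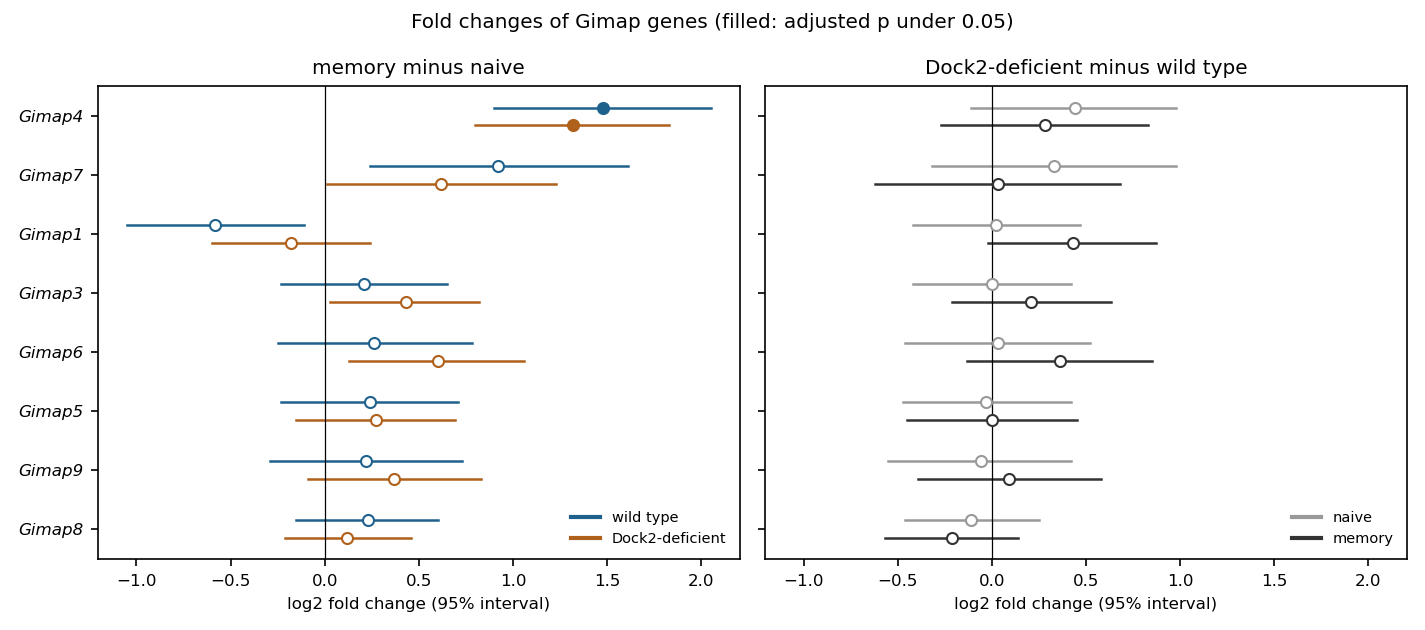
Log2 fold change with its 95% interval for each Gimap gene (x axis), memory minus naive on the left (wild type and Dock2-deficient) and Dock2-deficient minus wild type on the right (naive and memory cells); filled points have an adjusted p under 0.05. Gimap4 at 1.48 and 1.32 on the left is the only gene with filled points, and Gimap1 is the only one left of 0 in both genotypes there.

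Whether Dock2 deficiency changed the GIMAP genes was asked within each state. No member passed the test in naive cells, in memory cells or averaged over states (limma, 0 of 8 each, and 0 of 8 at an unadjusted p under 0.05). Over all genes 0.138%, 0.0530% and 0.371% passed. Before adjustment, 576, 1546 and 1393 of the 9437 genes had a limma p under 0.05 in these comparisons. The groups of the 2 genotypes overlapped for all 8 members in both states, while 2.71% of all genes in naive and 4.44% in memory cells did not overlap. The median difference of the members was 0.01 in naive and 0.15 in memory cells, against 0.00 and 0.01 over all genes.

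The largest genotype estimate in naive cells was that of Gimap4, 0.44 ± 0.26 (95% interval -0.11 to 0.98, limma adjusted p = 0.911). Libraries 2, 4 and 5 of the Dock2-deficient naive group, at 485.1, 582.3 and 577.5, were above all 4 wild-type naive libraries, and libraries 1 and 3, at 312.8 and 311.8, were within the wild-type range. In memory cells the Gimap4 estimate was 0.28 ± 0.26 (limma adjusted p = 0.599). Genes of the memory state were also present in Dock2-deficient naive libraries: Tbx21 was 42.7, 81.5, 28.7, 42.5 and 50.8 there and 18.2, 5.42, 2.79 and 3.39 in wild-type naive libraries. Ccl5 was 26.4, 103, 18.9, 56.1 and 27.9 against 4.96, 5.42, 2.79 and 0, and Cxcr3 was 13.6, 76.8, 65.0, 92.2 and 28.9 against 1.13 to 8.38. Cd44 itself was not higher there, at 0 to 21.7 with 4 of 5 libraries at or below 3.64, against 3.39 to 9.78, and the naive-state gene Ccr7 had a mean of 1274 ± 198 there against 1056 ± 142 in wild-type naive libraries. In bulk RNA, more cells that express a gene and more RNA per cell cannot be told apart, and the part of these values in the Gimap4 estimate was not tested. Sex moved with genotype as well. All wild-type libraries had high Xist, so a fit with Xist as a covariate rests mainly on the few Dock2-deficient libraries that also had it. Sex and genotype cannot be told apart here, and the part of sex in the Gimap4 estimate was not tested. The 2 Dock2-deficient libraries with high Xist, number 1 of each state, had Gimap4 values of 312.8, which only library 3 undercut in its group, and 710.0, the lowest of its group. With log2 Xist as a covariate the Gimap4 genotype estimates were -0.10 in naive and -0.32 in memory cells (limma adjusted p = 1 and 0.917).

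In memory cells the largest genotype estimate was that of Gimap1, 0.43 ± 0.21 (95% interval -0.02 to 0.87, limma adjusted p = 0.320). Gimap1 was 156 to 211 in wild-type and 174 to 324 in Dock2-deficient memory libraries, and 4 of the 5 latter were above all of the former. Gimap6 and Gimap3 had estimates of 0.36 ± 0.24 and 0.21 ± 0.20 (limma adjusted p = 0.435 and 0.599). The estimates of Gimap6, Gimap3 and Gimap4 depended on the scaling and on single libraries. Leaving out 1 library gave 0.14 to 0.46, 0.03 to 0.30 and 0.07 to 0.43 for them, and 0.33 to 0.55 for Gimap1. Under quantile scaling the estimates were 0.50 for Gimap1, 0.05 for Gimap6, -0.09 for Gimap3 and -0.00 for Gimap4. Without wild-type memory 4 and Dock2-deficient memory 5 together they were 0.25, 0.20, 0.07 and 0.17. Without Dock2-deficient memory 5 alone the median of the 8 members was -0.01 in place of 0.15. With log2 Xist as a covariate the estimates were 0.29 for Gimap1, 0.09 for Gimap6, -0.08 for Gimap3 and -0.32 for Gimap4. Gimap7 moved from 0.03 to -0.60. The median of the 8 members was then -0.10 in memory and -0.16 in naive cells. That fit rests mainly on few Dock2-deficient libraries, and the part of sex in these estimates was not tested. In the main fit the estimates of the other members in memory cells lay between -0.21 for Gimap8 and 0.28 for Gimap4. Whether the memory difference itself depended on genotype was tested by the interaction: no member passed (limma, 0 of 8, none at an unadjusted p under 0.05), against 0.0318% of all genes. Of all 9437 genes, 492 had an interaction limma p under 0.05 before adjustment. The interaction was -0.16 ± 0.37 (95% interval -0.93 to 0.62) for Gimap4, -0.30 ± 0.44 for Gimap7 and 0.40 ± 0.30 for Gimap1, with limma adjusted p of 0.944, 0.908 and 0.819. The intervals were wide enough that a sizeable dependence on genotype was not detectable with these libraries.

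The make-up of the family differed between states, with Gimap4 on average below Gimap3 in both naive groups and first in both memory groups. Levels of different genes were compared per kb of annotated exon. Over all 18 libraries the mean level was 393 per kb for Gimap4, 345 for Gimap3, 236 for Gimap6, 82.2 for Gimap1, 61.2 for Gimap9, 44.8 for Gimap5, 41.4 for Gimap7 and 26.6 for Gimap8. In wild-type naive cells Gimap3 was highest at 302.1 ± 37.7 per kb (SD, n = 4), then Gimap6 at 193 ± 32.7 and Gimap4 at 178 ± 33.7. The ranges of the last pair overlapped across libraries, but within each of the 4 libraries Gimap6 was above Gimap4. In wild-type memory cells Gimap4 came first at 495 ± 81.5 per kb, then Gimap3 at 348 ± 25.1 and Gimap6 at 230 ± 21.2. In Dock2-deficient naive cells the order was Gimap3 at 301.2 ± 34.0, Gimap4 at 247 ± 73.5 and Gimap6 at 198 ± 42.4 per kb (n = 5). Within libraries, Gimap4 was slightly above Gimap3 in library 2 only and slightly below Gimap6 in library 1 only. In Dock2-deficient memory cells the order was Gimap4 at 629 ± 258, Gimap3 at 419 ± 144 and Gimap6 at 312.3 ± 132 per kb. This order held within every library of both memory groups. Gimap1 came next in both naive groups and in Dock2-deficient memory cells, at 92.5 ± 25.4, 91.8 ± 14.6 and 82.0 ± 17.9 per kb. In Dock2-deficient memory cells Gimap1 (56.7 to 106 per kb) and Gimap9 (56.2 to 102 per kb) lay within the same range. In library 4 alone Gimap9 was the higher. In wild-type memory cells Gimap1, at 60.0 ± 7.34 per kb, was above Gimap9, at 64.5 ± 10.3, in libraries 2 and 3 and below it in libraries 1 and 4. Gimap5, Gimap7 and Gimap8 closed the order in all 4 groups, at 24.2 to 53.3 per kb on average.

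Expressed as a share of the summed per-kb level of the 8 genes, Gimap4 made up 19.4% ± 0.872 (18.5 to 20.2) in wild-type naive and 37.1% ± 2.19 (35.0 to 39.6) in wild-type memory libraries. In Dock2-deficient mice the naive share was 24.6% ± 3.82 (20.3 to 27.9) and the memory share 37.8% ± 4.01 (32.4 to 42.9). A share within a library is not moved by that library's scaling. In both genotypes every memory library had a larger Gimap4 share than every naive one. Gimap1 made up 9.99% ± 1.75 and 4.59% ± 0.923 in wild-type naive and memory, and 9.33% ± 0.810 and 5.20% ± 1.13 in Dock2-deficient naive and memory libraries. The ratio of the Gimap4 to the Gimap1 value was 1.19 ± 0.198 in wild-type naive and 5.05 ± 1.48 in wild-type memory, and 1.59 ± 0.364 and 4.61 ± 1.50 in the Dock2-deficient groups. The lowest memory ratio, 3.08, was above the highest naive ratio, 2.09. The ratio of Gimap4 to Gimap3 was 0.419 ± 0.0431 and 1.01 ± 0.101 in wild-type naive and memory, and 0.582 ± 0.148 and 1.06 ± 0.160 in Dock2-deficient naive and memory libraries. A ratio within a library shows unequal change, not that the other gene was constant.

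**Figure D3:**
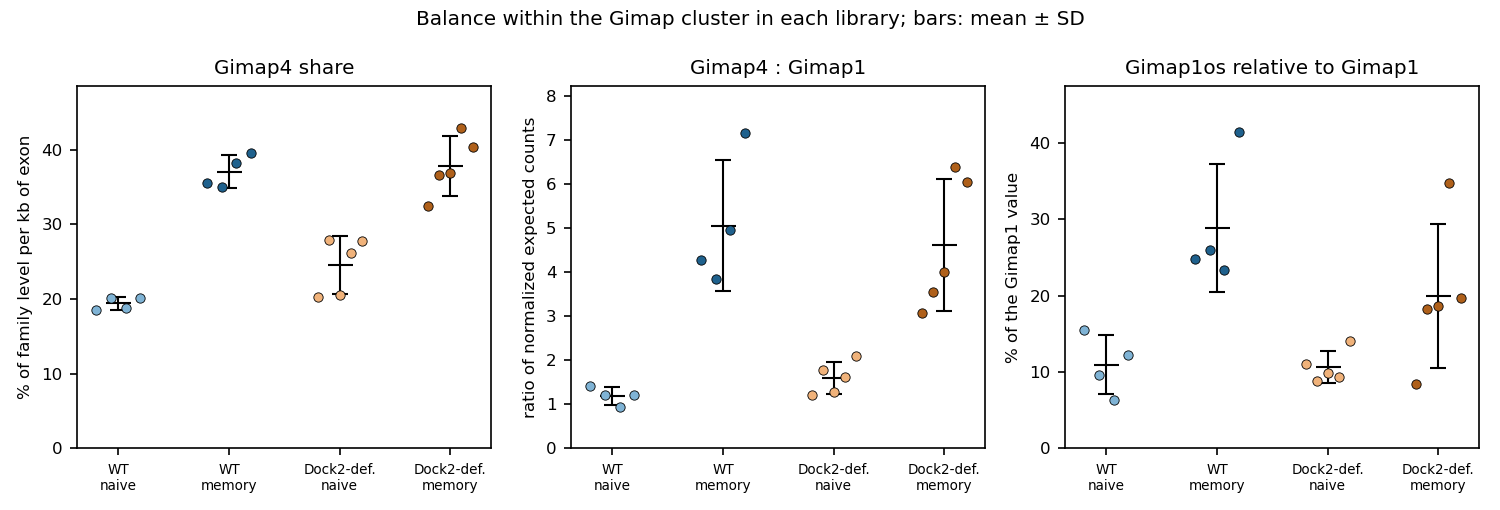
Balance within the family in each library (points; bars are mean ± SD, linear axes from 0): the share of Gimap4 in the summed level per kb of exon, the ratio of Gimap4 to Gimap1, and Gimap1os as a percentage of Gimap1. The Gimap4 share lies at 18.5 to 27.9% in the 9 naive libraries and at 32.4 to 42.9% in the 9 memory libraries.

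In the cluster, Gimap4 lay between Gimap9 and Gimap6, whose averaged memory differences were 0.29 ± 0.16 and 0.43 ± 0.17, both short of the threshold (limma adjusted p = 0.409 and 0.175). Gimap7, the other member that passed, lay on the far side of Gimap6. The table held 50 other genes within the cluster or 1 Mb on either side of it, of which 17 were tested. None of the 17 passed in any of the 7 comparisons, and their median averaged memory difference was -0.19, against -0.02 over all genes. With at most 5.59% of all genes passing in any comparison, a count of 0 of 17 is near the background.

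**Figure D4:**
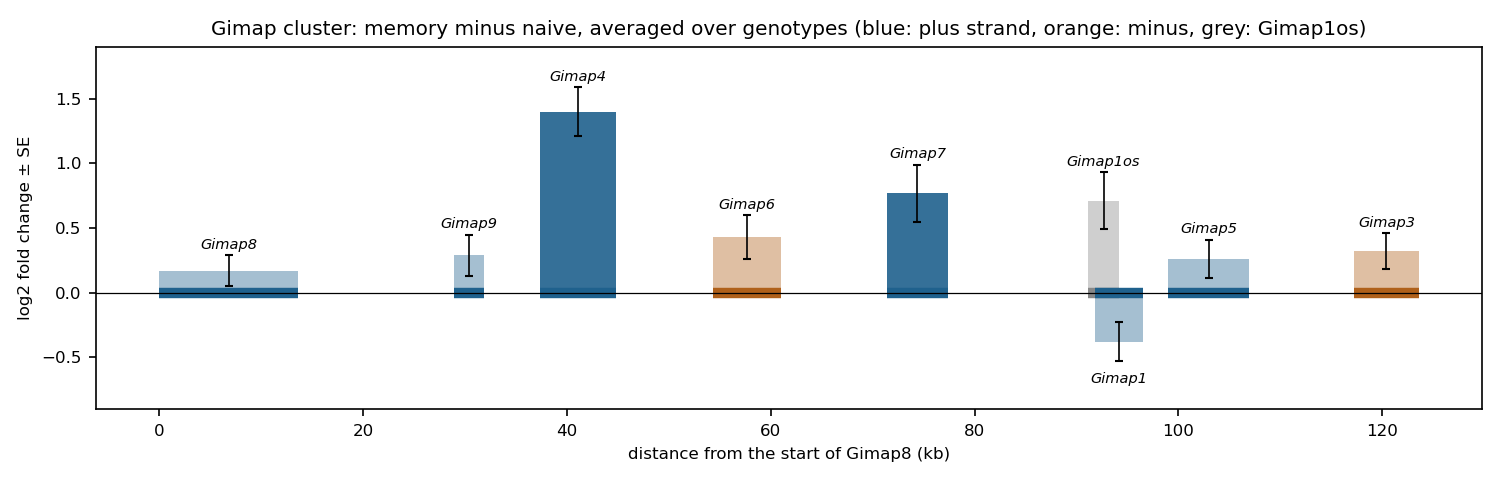
The cluster drawn to scale, with distance from the start of Gimap8 in kb on the x axis and the log2 fold change between memory and naive cells averaged over genotypes on the y axis (bars from 0, error bars ± SE, full colour where the adjusted p was under 0.05). Gimap4 at 1.40 and Gimap7 at 0.77 stand in full colour, and Gimap1 at -0.38 is the only bar below 0.

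Most members varied together from library to library within groups. Pearson correlations of the deviations from group means, over 18 libraries that share their depth and scaling between genes, ranged from -0.08 to 0.90 over the 28 pairs, with a median of 0.51. The closest pairs were Gimap3 with Gimap6 at 0.90 and Gimap4 with Gimap6 at 0.88. Gimap8 stood aside, at -0.08 to 0.24 with the other 7. Pairs of other genes were not compared, so whether such correlations are particular to the family was not tested. Leprotl1, a gene outside it, correlated with the family's mean standardised deviation at 0.93. One library, left out after its values were seen, carried part of the members' joint variation. Without Dock2-deficient memory library 5 the median was 0.38, Gimap3 with Gimap6 was 0.75 and Gimap4 with Gimap6 was 0.80. That library also had the lowest share of Rn18s-rs5 reads, 37.0%. The family's mean standardised deviation correlated with the Rn18s-rs5 share at -0.58 over 18 libraries and at -0.35 without that library, and with the log depth at -0.11; their part in the joint variation was not tested.

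**Figure D5:**
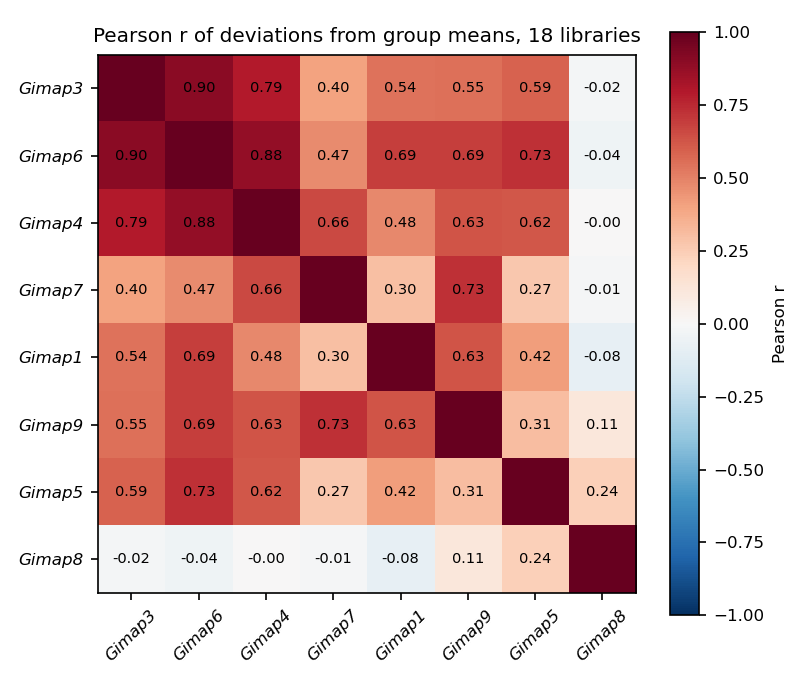
Pearson correlation of each pair of Gimap genes over 18 libraries, after subtracting the group mean of each gene; colour runs from -1 to 1 and the values are printed in the cells. Gimap3, Gimap6 and Gimap4 form the closest group (0.79 to 0.90), and the row of Gimap8 stays between -0.08 and 0.24.

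Among 3832 other genes with a mean of at least 50, those most like the family's mean standardised profile over 18 libraries were Hcst, Fam49b, Leprotl1, Capza2 and Gtf3a, with Pearson correlations of 0.92, 0.90, 0.90, 0.88 and 0.88. After group means were subtracted, they were Leprotl1, Tapbpl, Ndufa7, AW112010 and Nop10, at 0.93 to 0.90. Without Dock2-deficient memory library 5 they were Fam49b, Hint1, Tapbpl, Leprotl1 and Ndufa7, at 0.92 to 0.89. Hcst, which encodes the signalling adaptor DAP10, was 107 ± 30.6 and 158 ± 16.0 in wild-type naive and memory libraries and 112 ± 32.8 and 225 ± 99.9 in the Dock2-deficient ones.

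Genes of the processes to which GIMAP proteins have been tied were then counted, beginning with the BCL2 family, which sets the threshold for cell death. Of its 14 listed genes 10 were tested. In memory cells 2 rose in the wild type (Bcl2l1 and Pmaip1), 3 in Dock2-deficient mice (Bcl2, Bcl2l1 and Bcl2l11) and 4 averaged over genotypes, and none fell. Over all genes 2.52%, 2.82% and 5.59% passed in these 3 comparisons. The median averaged difference of the list was 0.34, against -0.02 over all genes. Bcl2, the founding survival gene, was 155 ± 23.8 and 263 ± 61.5 in wild-type naive and memory libraries and 128 ± 34.4 and 279 ± 53.3 in the Dock2-deficient ones (averaged log2 difference 0.94 ± 0.16, limma adjusted p = 4.0e-04). The survival gene Bcl2l1 rose by 1.82 ± 0.26 and the death-promoting genes Bcl2l11 (BIM) and Pmaip1 (NOXA) by 1.24 ± 0.20 and 1.59 ± 0.44 (limma adjusted p = 6.2e-05, 2.6e-04 and 0.0370). Pmaip1 passed in the wild type (2.64 ± 0.66, limma adjusted p = 0.0316) but not in Dock2-deficient mice (0.54 ± 0.59, limma adjusted p = 0.751). Its value in wild-type naive libraries was low and scattered, at 4.42 ± 7.93, against 20.6 ± 7.76 in Dock2-deficient naive libraries. The members that rose averaged over genotypes thus include both survival and death genes. Bax, an effector of cell death, had a difference of 0.24 ± 0.17 (limma adjusted p = 0.564).

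Of 17 listed genes of ATG8 proteins and autophagy 16 were tested, and 1 rose, Gabarapl2, in Dock2-deficient mice (0.87 ± 0.23, limma adjusted p = 0.0435) and averaged over genotypes (0.64 ± 0.17, limma adjusted p = 0.0298). Gabarapl2 was 104 ± 27.1 and 138 ± 32.5 in wild-type naive and memory libraries and 126 ± 29.7 and 232 ± 58.3 in the Dock2-deficient ones. Gabarap had an averaged difference of 0.19 ± 0.17 (limma adjusted p = 0.647), and Gabarapl1, at 1.65 to 2.53 on average, was too low to test. This 1 of 16 is close to the share of all genes that passed (2.82% and 5.59%), and the median averaged difference of the list was 0.10, against -0.02 over all genes.

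Of 16 genes of the IL-7 receptor, quiescence and recirculation, all tested, 3 fell in wild-type memory cells (Foxo1, Ccr7 and Lef1), 1 in Dock2-deficient memory cells (Lef1) and 4 averaged over genotypes, and none rose. The shares over all genes were 2.52%, 2.82% and 5.59%, so the count in Dock2-deficient mice is close to the background. The averaged differences of these 4 were -0.75 ± 0.16 for Foxo1, a transcription factor of naive T cells, -0.83 ± 0.14 for the lymph node homing receptor Ccr7, -0.89 ± 0.15 for Lef1 and -1.16 ± 0.28 for Bach2, with limma adjusted p of 0.00560, 6.3e-04, 5.1e-04 and 0.0124. Il7r, the IL-7 receptor alpha chain, was 392 ± 70.9 and 477 ± 96.0 in the wild-type naive and memory groups and 245 ± 57.3 and 355 ± 47.3 in the Dock2-deficient ones, and missed the threshold (0.42 ± 0.14, limma adjusted p = 0.0945). Klf2, which drives exit from lymph nodes, had a difference of 0.06 ± 0.24. The median averaged difference of the list was -0.27, against -0.02 over all genes.

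Among the 10 genes of GSK3 and the lysosome, all tested, Ctsd rose in Dock2-deficient memory cells (0.93 ± 0.21, limma adjusted p = 0.0119), and Ctsd and Lamp1, genes of a lysosomal protease and a lysosomal membrane protein, rose averaged over genotypes (0.85 ± 0.16 and 1.08 ± 0.29, limma adjusted p = 0.00108 and 0.0292). Gsk3b, Gsk3a and Ctnnb1 had averaged differences of -0.28 ± 0.24, -0.29 ± 0.50 and -0.39 ± 0.25, none past the threshold. With 10 genes in the list, 1 and 2 calls stand beside 2.82% and 5.59% of all genes. The median of this list was -0.18. Of 8 septins, which share the GTPase fold, 7 were tested and none passed in any comparison. Sept1, Sept2 and Sept6 had averaged differences of 0.41 ± 0.13, -0.14 ± 0.16 and 0.00 ± 0.11 (limma adjusted p = 0.0663, 0.745 and 0.993), and the median of the septins was 0.00. In none of the 5 lists did a gene pass in a comparison of genotypes or in the interaction.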

How the data were processed

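Per the labels' protocols, RNA came from a Qiagen RNAeasy kit and went into Smartseq2, a method blind to strand. The submitters' processing notes name RSEM, FastQC and bcl2fastq and the build mm10; tool versions, aligner settings and the annotation are not given in the sources used here. What the authors deposited is a normalized signal: RSEM expected counts that the authors divided by a size factor per library. Of the values above 0, 59.5% to 69.3% per library were whole reads within 0.005, so no count model was run. Tests used log2(value + 1) in limma 3.58.1 (R 4.3.3) on 9437 genes with at least 10 in at least 4 libraries, as a single two-sided fit with 1 mean per group over 18 libraries and 14 residual degrees of freedom. The +1 understates changes of low genes. The script was tested on simulated data. Positions and exon lengths came from GENCODE M21. No replicate pair was identical (Pearson r 0.786 to 0.923 over kept genes, 32 pairs). Members and gene lists were chosen with earlier results of these data known. All members, the first 3 genes of each list and every list gene that passed were named, with the 5 genes most like the family on each scale. Alternatives covered scaling, the pseudocount, filters, the libraries fitted, Xist as a covariate, a replicate block and leaving out each library.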

Additional observations from a re-analysis of the deposited data

Results flagged for a closer look

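Of 32 series (8 genes in 4 groups), 4 had a library set apart from the others of its group by Dixon's criterion at 95%; chance gives about 1 in 20. Gimap6 was 1889 in Dock2-deficient memory library 5, against 781 to 1085 in the other 4. Gimap1 was 359 and Gimap9 was 130 in Dock2-deficient naive library 4, against 245 to 276 and 70.1 to 82.7 in the others. Gimap8 was 103 in wild-type naive library 3, against 92.6 to 94.0. Memory library 5 was also the highest of its group for Gimap1, Gimap3, Gimap4, Gimap5 and Gimap9. Gimap1, Gimap6, Gimap8 and Gimap9 passed the limma test in none of the 7 comparisons.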

How the results depend on the processing

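Of 1488 alternative values of 56 member results, 1472 kept their side of the threshold, none gained a call or reversed, and 16 lost it, all of them the averaged memory difference of Gimap7. That call was lost under quantile scaling (limma adjusted p = 0.0524), with no filter (0.1) and without wild-type memory 4 and Dock2-deficient memory 5 together (0.143); Xist as a covariate (0.0261) and the replicate block (0.017) kept it. Gimap4 passed in all 27 alternatives in each genotype, at 1.36 to 1.59 in the wild type and 1.11 to 1.47 in Dock2-deficient mice, and in all 26 averaged. Among results that did not pass, 22 changed sign in at least 1 alternative.

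Counts over all genes moved by over 1.5 times as follows; the cause was not tested unless the filter changed the number of genes. The stricter filter gave 140 calls in place of 238 for wild-type memory, 333 in place of 528 for memory averaged, 2 in place of 5 for genotype in memory cells, 1 in place of 3 for the interaction and 23 in place of 35 for genotype averaged. With no filter these last 3 were 10, 0 and 21. Fitting only the libraries compared gave 8 in place of 13 for genotype in naive and 3 for genotype in memory cells. With Xist as a covariate genotype gave 4 in naive cells, 0 in memory cells and 2 averaged; sex and genotype were nearly the same split. A pseudocount of 5 gave 12 for genotype in memory cells, and quantile scaling gave 56 for genotype averaged. The interaction gave 0 without wild-type memory 4 and Dock2-deficient memory 5. Leaving out 1 library gave 3 to 12 for genotype in memory cells, 0 to 2 for the interaction and 19 to 55 for genotype averaged.

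Whether replicate numbers pair the samples is not stated. Correlations of same-numbered deviations ran from -0.253 to 0.303, were above 0.1 in 5 of 17 pairs, and were higher than with any other number in 6 of 17. These 17 included pairs across genotypes, which cannot be from the same animal. In Dock2-deficient mice Xist was high in library 1 of both states, at 2217 and 2593, and low in the others, so same-numbered libraries there shared their Xist level. The numbers were not treated as pairs in the main fit. A replicate block was fitted as an alternative. For memory and the interaction the block was the replicate number within each genotype. The counts were 196 and 218 for memory in the wild type and Dock2-deficient mice, 435 averaged and 0 for the interaction. For genotype the block was the number shared across genotypes, which cannot stand for the same animal. The counts were 19 and 7 for genotype in naive and memory cells and 28 averaged.

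Depth limits Gimap7 most, with 24.0 expected reads in 1 library.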
